A study of Mus musculus with 8 samples.

Results

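T lymphocytes and natural killer (NK) cells were examined through 10 marker genes, taken by gene symbol from the annotation of the array probes: Prf1, Gzma, Gzmb, Cd3e, Cd3g, Cd8a, Cd4, Nkg7, Il2rb and Lck. Of these, 9 had a probe among 16593 named genes on the array, and Lck, the kinase that starts T cell receptor signalling, had none paired with it here. Prf1 had 2 probes and the others 1 each, which made 10 probes. Total RNA of mouse prostates was read on 8 beadchip arrays, 1 per sample, where the brightness (intensity) of a probe reports its transcript.

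Every mouse had a C57Bl/6 background. Non-tumour prostate came from wild-type mice at 30 weeks (n = 2). Tumours came from untreated TRAMP mice at 30 weeks (n = 2), from TRAMP mice dosed since week 8 with the mast cell stabiliser cromolyn and sampled at 24 weeks (n = 3), and from mast cell deficient TRAMP KitW-sh at 24 weeks (n = 1). TRAMP mice carry a transgene in which a prostate-directed probasin promoter drives viral T antigens in epithelium. The KitW-sh allele changes the expression of Kit, a receptor that other cells use as well as mast cells. The untreated tumours were older than the other tumours, so age and mast cell state cannot be told apart. Whether replicates were separate animals is not given in the labels, so p-values reflect the scatter of these arrays, part of which may be technical.

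T cells recognise antigen through a receptor that signals through the CD3 chains, with CD4 or CD8 as coreceptor and Lck as the first kinase. Cytotoxic T cells and NK cells kill by releasing granules that hold perforin, which opens the target membrane, and granzymes, which are proteases that enter the cell. Both depend on interleukins 2 and 15, which are sensed through the shared beta chain encoded by Il2rb. In bulk tissue, fewer cells of a type and less RNA per cell cannot be told apart.

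A probe was counted as above background where its deposited intensity passed 216.34, the level that a share of 0.01 of an estimated background distribution would pass. On this basis 5 of the 9 genes were above background on at least 1 array (Prf1, Cd3g, Cd3e, Nkg7 and Il2rb), and 4 were not above it on any (Gzma, Gzmb, Cd8a and Cd4). Both wild-type arrays and untreated TRAMP replicate 1 had 5 of 9 genes above background, and untreated TRAMP replicate 2 had 4. Cromolyn replicates 2 and 3 and the KitW-sh array had 3 each, and cromolyn replicate 1 had 1, Prf1. Apart from Prf1, no intensity of these genes exceeded 480.8, and 21 of their 64 values passed the limit. The choice of limit mattered for single arrays. Il2rb on wild-type replicate 1 (216.7) and Cd3e on the KitW-sh array (217.1) lay just inside it, and Cd3e on cromolyn replicate 2 (214.6) and Nkg7 on cromolyn replicate 3 (213.7) just outside.

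**Figure D1:**
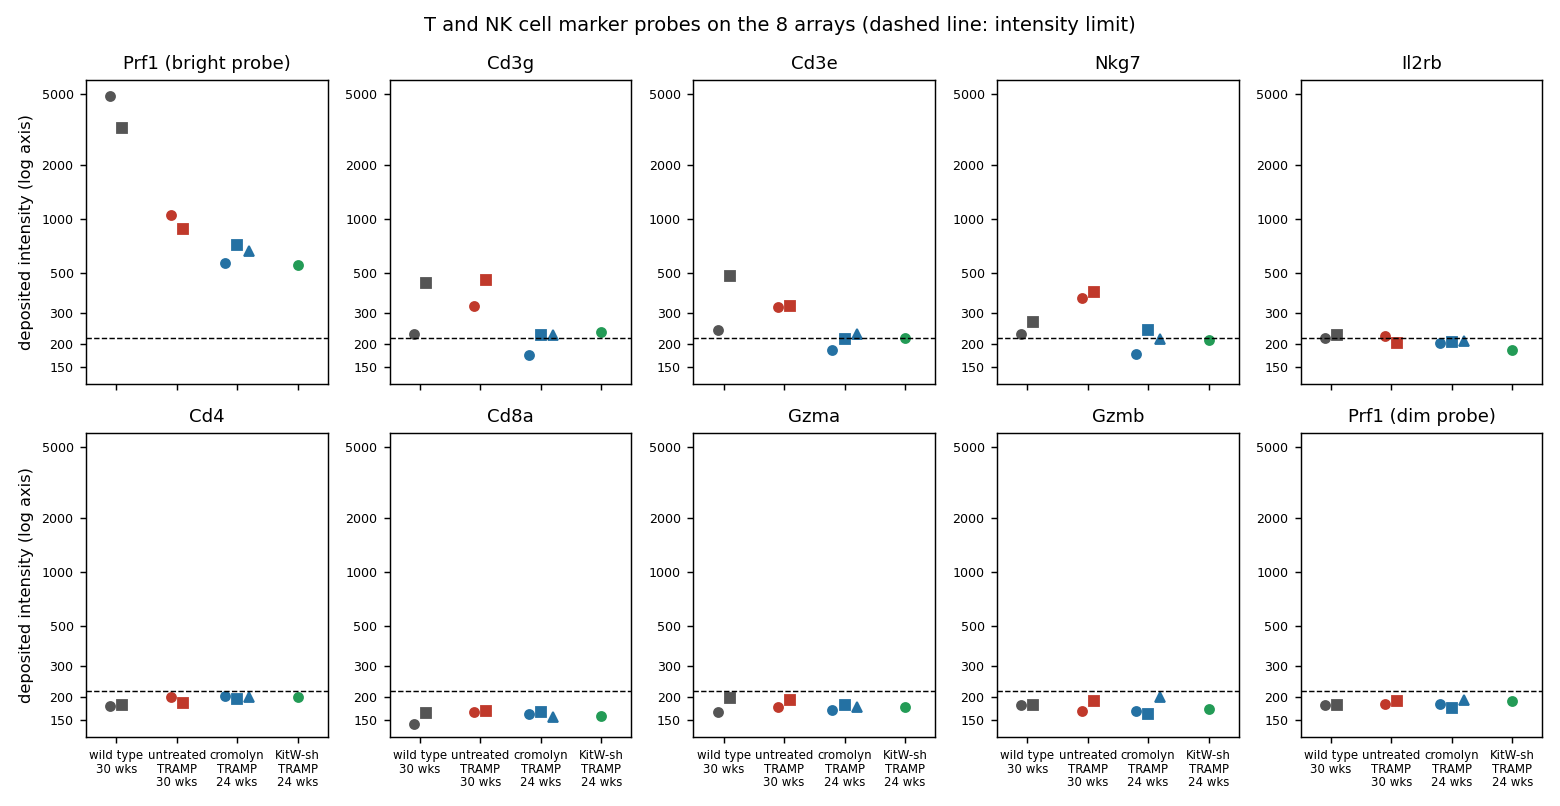
Deposited intensity (log axis) of each of the 10 probes on the 8 arrays, by group. Circles, squares and triangles are replicates 1, 2 and 3, and the dashed line is the intensity limit of 216.34. The bright Prf1 probe lies above the limit on all 8 arrays, whereas Cd4, Cd8a, Gzma, Gzmb and the dim Prf1 probe lie below it on all 8.

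The wild-type arrays stood apart from each other in immune genes in general. The mean log2 level over 11 pan leukocyte genes was 9.59 and 10.65 on the wild-type arrays, and over 13 macrophage and myeloid genes it was 9.32 and 11.36, with replicate 2 the higher in both. Over 6 B and plasma cell genes it was 7.13 and 8.62, again with replicate 2 the higher. Markers of other cell types differed between groups. The mean log2 level of 9 epithelial genes was 12.04 to 12.72 on the 30-week arrays and 6.85 to 8.64 on the 24-week arrays. Of 9 neuroendocrine genes, 7 were above background on each wild-type array, 2 on each untreated TRAMP array and 9 on each 24-week array. The part of these differences in the values below was not tested.

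Differences were tested with limma on log2 values over all 13072 features above background on at least 1 array, and are given as log2 difference ± SE with a p-value adjusted over all of them. Against wild type, 1 of the 5 tested markers was lower in untreated TRAMP (Prf1) and 0 were higher, while 2.88% of all features were called lower, 3.73% higher and 6.61% in either direction. With cromolyn against untreated TRAMP, 1 of 5 was lower (Nkg7) and 0 higher, against 18% of all features lower, 18.8% higher and 36.9% in either direction. With KitW-sh against untreated TRAMP, 1 of 5 was lower (Nkg7) and 0 higher, against 11.2% lower, 11.4% higher and 22.6% in either direction. Against wild type, 1 of 5 (Prf1) was lower both with cromolyn, where 22.8% of all features were lower, 22.9% higher and 45.7% called in either direction, and with KitW-sh, where it was 15.2%, 15.8% and 31.1%. With 5 markers tested 1 call is 20%, close to the 18% of all features called lower with cromolyn against untreated TRAMP and the 22.8% against wild type. Comparisons that share the untreated or the wild-type arrays are not independent of each other.

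The median difference over the 5 tested markers was -0.05 for untreated TRAMP against wild type, beside -0.01 over all features. Relative to untreated TRAMP it was -0.98 with cromolyn and -0.91 with KitW-sh, beside 0.05 and 0.01. With genes that no array of 1 group measured set to their bound, these medians were -1.13 and -0.96 over the 4 markers with a value. All 5 tested markers had a negative difference in both of these comparisons, which share the untreated TRAMP arrays. For Il2rb the sign says little, as it was not above background on any cromolyn or KitW-sh array. Its cromolyn difference was -0.1 (95% interval -0.46 to 0.27), and 0.01 without untreated TRAMP replicate 1. The share of all features with a negative difference is not given here. Because the markers passed the filter through the arrays on which they were bright, these medians describe the 5 genes and not all 10.

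**Figure D2:**
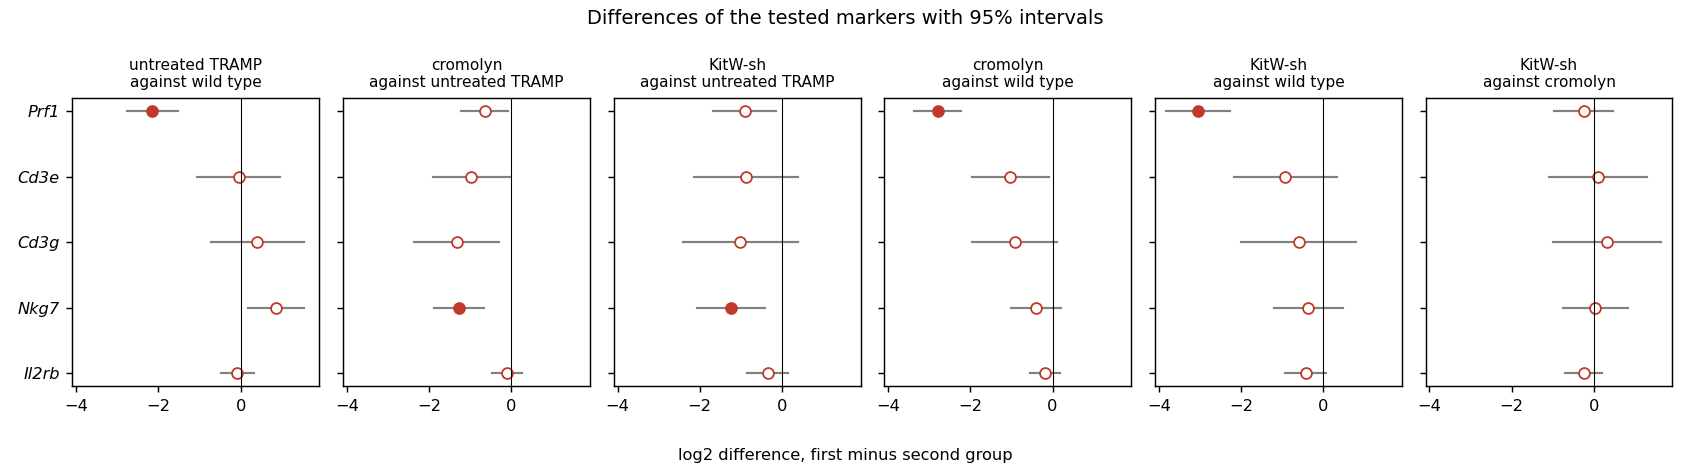
Log2 difference of the 5 tested markers, first minus second group, in the 6 comparisons. Bars are 95% intervals from limma, filled points passed an adjusted p of 0.05 and open points did not. Prf1 is called in the 3 comparisons with wild type and Nkg7 in the 2 comparisons of 24-week tumours with untreated TRAMP.

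The sequences around the start of the 4 genes on which the results turn are shown because Nkg7 and Prf1 carried the calls and Cd3e and Cd3g, neighbours in the genome, encode chains of one receptor. Each runs 5′ to 3′ on the strand of the gene, from 250 bases before to 50 after a RefSeq start, and capitals mark matches to 5 motifs of lymphocyte regulators, searched on both strands: AGGAAG (ETS family), TGTGGT (RUNX family), CACCTG and CAGCTG (E proteins) and TTCNNNGAA (STAT5, which acts below interleukin 2 and 15 receptors).
Prf1 (GRCm38.p6, chr10:61297586-61297885, plus strand): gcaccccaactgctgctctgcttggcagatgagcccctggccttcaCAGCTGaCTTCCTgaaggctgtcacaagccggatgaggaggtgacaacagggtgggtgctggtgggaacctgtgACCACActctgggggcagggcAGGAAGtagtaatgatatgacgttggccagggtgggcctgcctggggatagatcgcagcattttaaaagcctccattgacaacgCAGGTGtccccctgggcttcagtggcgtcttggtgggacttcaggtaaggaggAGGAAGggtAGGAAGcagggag
Nkg7 (GRCm38.p6, chr7:43436888-43437187, plus strand): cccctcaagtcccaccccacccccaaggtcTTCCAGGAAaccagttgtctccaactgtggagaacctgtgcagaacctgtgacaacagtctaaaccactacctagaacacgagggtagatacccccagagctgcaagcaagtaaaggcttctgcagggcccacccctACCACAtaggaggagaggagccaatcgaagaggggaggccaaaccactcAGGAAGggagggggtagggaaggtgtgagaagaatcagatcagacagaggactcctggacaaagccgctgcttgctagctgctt
Cd3e (GRCm38.p6, chr9:45009562-45009861, minus strand): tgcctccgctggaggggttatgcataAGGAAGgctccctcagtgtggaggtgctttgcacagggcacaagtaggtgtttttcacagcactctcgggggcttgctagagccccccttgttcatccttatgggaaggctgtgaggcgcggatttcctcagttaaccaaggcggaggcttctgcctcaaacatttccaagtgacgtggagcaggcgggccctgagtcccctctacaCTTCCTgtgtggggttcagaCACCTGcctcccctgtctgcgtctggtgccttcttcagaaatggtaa
Cd3g (GRCm38.p6, chr9:44980382-44980681, minus strand): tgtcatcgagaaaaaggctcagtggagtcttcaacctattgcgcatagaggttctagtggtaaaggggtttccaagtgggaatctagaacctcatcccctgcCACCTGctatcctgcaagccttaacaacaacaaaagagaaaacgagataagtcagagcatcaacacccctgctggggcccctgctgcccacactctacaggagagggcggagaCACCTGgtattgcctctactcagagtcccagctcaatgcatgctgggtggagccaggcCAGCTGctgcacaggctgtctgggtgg
Prf1 held 4 copies of AGGAAG, Cd3e held 2, Nkg7 held 1 and Cd3g held 0, and 35.4% of 32851 mouse promoters of this length held at least 1. TGTGGT was found once in Prf1 and once in Nkg7, with 16.8% of promoters holding it. CACCTG was found once in Prf1, once in Cd3e and in 2 copies in Cd3g (20.2% of promoters), and CAGCTG once in Prf1 and once in Cd3g (16.3%). TTCNNNGAA was found in Nkg7 alone of the 4 (8.3%), beginning 220 bases before the start. No motif was common to all 4 genes, and a match describes letters in this window, not binding.

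Of the T cell receptor chains, Cd3e, the epsilon chain, had intensities of 240.8 and 480.8 in wild type, 323.6 and 325.8 in untreated TRAMP, 186.2, 214.6 and 227 with cromolyn, and 217.1 with KitW-sh. All 4 arrays of the 30-week mice were thus brighter than all 4 arrays of the 24-week tumours, and the wild-type values enclosed the untreated TRAMP values. The log2 difference was -0.98 ± 0.39 for cromolyn against untreated TRAMP (limma adjusted p = 0.0961) and -0.87 ± 0.52 for KitW-sh (adjusted p = 0.291), and neither passed. The Cd3e difference with cromolyn passed in 3 of 18 alternative fits. These were the fit of only the groups compared and those without wild-type replicate 1 or replicate 2, which enter the pooled spread. It did not pass without untreated TRAMP replicate 1 (-0.98) or 2 (-0.97) or cromolyn replicate 1 (-0.83).

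Cd3g, the gamma chain, had intensities of 229.3 and 440.4 in wild type, 326.9 and 455.3 in untreated TRAMP, 174.3, 224.1 and 226.1 with cromolyn, and 235.3 with KitW-sh. Untreated TRAMP lay above both 24-week groups without overlap, but the KitW-sh array lay between the wild-type arrays. The cromolyn difference from untreated TRAMP was -1.33 ± 0.44 and narrowly missed the threshold (limma adjusted p = 0.0526), and the KitW-sh difference was -1.01 ± 0.58 (adjusted p = 0.274). The cromolyn difference passed in 7 of 18 alternative fits. Neither chain differed between untreated TRAMP and wild type beyond the spread of the wild-type pair (Cd3e -0.05 ± 0.43, limma adjusted p = 0.968, and Cd3g 0.41 ± 0.48, limma adjusted p = 0.7). Both chains were brighter on wild-type replicate 2 than on replicate 1, as the leukocyte lists were, and the part of this in the spread was not tested.

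The coreceptor genes Cd8a and Cd4 gave no signal over background. Cd8a, the alpha chain of CD8, had intensities of 141.7 to 166.9 over the 8 arrays, at most 77.2% of the limit. Cd4 had 177.9 to 203.5, at most 94.1% of the limit. The levels of these genes in the 4 groups therefore cannot be ordered, and no fold is given for them.

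Nkg7, which encodes a membrane protein of cytotoxic granules, had intensities of 228.6 and 265 in wild type, 364.1 and 388.9 in untreated TRAMP, 176.2, 239.7 and 213.7 with cromolyn, and 210.7 with KitW-sh. Untreated TRAMP was the brightest group and overlapped no other. Nkg7 was above background on 1 of 3 cromolyn arrays and not on the KitW-sh array. It fell by 1.27 ± 0.26 on the log2 scale with cromolyn against untreated TRAMP (limma adjusted p = 0.00954). With KitW-sh it was 1.79-fold lower than in untreated TRAMP in mean deposited intensity, which still holds background, and at least 2.24-fold lower on the background-corrected scale, set against the lowest level above background there (limma adjusted p = 0.0466). A bound of this kind holds for the corrected scale alone. The difference between untreated TRAMP and wild type was 0.87 ± 0.28 and did not pass (limma adjusted p = 0.138). The cromolyn call was lost without untreated TRAMP replicate 1 (adjusted p = 0.0583) or replicate 2 (0.0738). The KitW-sh call was kept in 8 of 17 alternative fits (adjusted p from 0.0039 to 0.171). It was lost without any filter on dim probes (0.0515), under other scalings (normexp offset 16, 0.0611, and cyclic loess, 0.0573), and without wild-type replicate 1 (0.0646), wild-type replicate 2 (0.0643), untreated TRAMP replicate 1 (0.141), untreated TRAMP replicate 2 (0.171) or cromolyn replicate 3 (0.0714).

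Il2rb, the receptor chain shared by interleukins 2 and 15, stayed within 186.6 to 225 on all 8 arrays. It was above background on both wild-type arrays (216.7 and 225) and on untreated TRAMP replicate 1 (223.4), at most 1.04 times the limit. Its range over the arrays, 0.47 on the log2 scale, lay at percentile 4.95 of the ranges of all features tested. No difference passed: it was -0.08 ± 0.17 for untreated TRAMP against wild type (limma adjusted p = 0.849) and -0.10 ± 0.15 for cromolyn against untreated TRAMP (adjusted p = 0.663, 95% interval -0.46 to 0.27). So near background, the intensity of Il2rb says little about its level.

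Prf1, the perforin gene, was the only marker above background on all 8 arrays. Its bright probe had intensities of 4846.1 and 3243.5 in wild type, 1058.3 and 877.9 in untreated TRAMP, 565.9, 716.6 and 660.7 with cromolyn, and 554.7 with KitW-sh. The order was wild type, untreated TRAMP, cromolyn and KitW-sh. Wild type and untreated TRAMP overlapped no other group, and the KitW-sh array lay just below the dimmest cromolyn array. Against wild type the log2 difference of Prf1 was -2.15 ± 0.26 in untreated TRAMP (limma adjusted p = 0.00663), -2.80 ± 0.24 with cromolyn (limma, 0.000221) and -3.05 ± 0.32 with KitW-sh (limma, 0.00113), so it fell in all 3. In mean intensity, wild type was 4.18-fold, 6.25-fold and 7.29-fold the brighter. Against untreated TRAMP the differences were -0.65 ± 0.24 with cromolyn (limma adjusted p = 0.0747) and -0.91 ± 0.32 for the KitW-sh tumour (limma, 0.091), and neither passed. The call of untreated TRAMP against wild type was lost without untreated TRAMP replicate 2 (adjusted p = 0.0681).

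The second Prf1 probe disagreed, with intensities of 180.3 to 182.4 in wild type, 182.5 to 192 in untreated TRAMP, 173.9 to 193.2 with cromolyn and 190.1 with KitW-sh. It was not above background on any of the 8 arrays, while the bright probe reached 22.4 times the limit. Both probes were annotated to the same gene ID, and which of them reports the transcript was not tested. All Prf1 results here rest on the bright probe alone. The genes of granzymes A and B, whose products act together with perforin, gave no signal above background. Gzma, granzyme A, had intensities of 166.5 to 197.9 and Gzmb, granzyme B, of 160.9 to 200.1, so neither was above background in wild-type prostate, where Prf1 was brightest.

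Markers of other tissues also differed between groups. In untreated TRAMP against wild type, limma called 7 of 8 skeletal muscle genes lower (median difference -4.66). It called 0 of 8 prostate secretory genes there, with a median difference of -1.38 and 2 at an unadjusted p under 0.05. Over all features 2.88% were lower. Against untreated TRAMP, 4 of 8 secretory genes were lower with cromolyn and 3 of 8 with KitW-sh. For skeletal muscle genes it was 1 of 8 with each. Over all features, 18% were lower with cromolyn and 11.2% with KitW-sh. The mean log2 level of 8 skeletal muscle genes was 11.91 and 12.35 on the wild-type arrays, 7.93 to 8.02 in untreated TRAMP, 7.03 to 8.58 with cromolyn and 6.95 with KitW-sh. All 8 were above background in wild type, 4 to 5 of 8 in untreated TRAMP, 2 to 7 with cromolyn and 3 with KitW-sh. For 8 prostate secretory genes it was 13.4 to 14.32 in wild type, 11.54 to 12.65 in untreated TRAMP, 6.7 to 7.41 with cromolyn and 7.8 with KitW-sh, with 7 to 8, 6, 0 to 3 and 3 of 8 above background. The part of either in the Prf1 signal was not tested.

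For each marker above background on at least 4 arrays, the 3 named genes of most similar pattern were found by the root mean square difference of log2 levels over the 8 arrays, each gene centred on its own mean. For Prf1 these were Pirt (0.185), Fam117a (0.238) and the beta-defensin gene Defb11 (0.27). Pirt had intensities of 1028.6 and 662.3 in wild type and 182.7 to 234.8 on the other arrays, and Defb11 was above background on the 2 wild-type arrays only. For Cd3e the nearest were Fgd2 (0.149), the leukocyte surface gene Cd37 (0.166) and S100a14 (0.167). For Cd3g they were Ctsw (0.217), a protease gene of cytotoxic lymphocytes, Tgfb1 (0.221) and Rasal1 (0.221), and for Nkg7 they were Slc25a24 (0.114), Vangl1 (0.158) and Tax1bp3 (0.166). No marker was among the 3 nearest genes of another.

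Other genes of the T cell receptor and its signalling, a list of 20, had 19 with a probe and 13 tested, while 6 were not above background on any array (Cd5, Ubash3a, Themis, Trat1, Skap1 and Cd96). With cromolyn against untreated TRAMP 2 of 13 fell and 0 rose, with a median of -0.31 beside 0.05 over all features. Counts in this and the following lists stand beside 18% of all features called lower with cromolyn and 11.2% with KitW-sh, both against untreated TRAMP. In untreated TRAMP against wild type, 3.73% were called higher and 2.88% lower. Thy1, a surface gene of T cells that fibroblasts and neurons also express, fell by 2.57 ± 0.37 (limma adjusted p = 0.00235), a call kept in 18 of 18 alternative fits. Cd8b1, the beta chain of CD8, fell by 1.14 ± 0.34 (limma adjusted p = 0.0379). Cd8b1 had intensities of 271.5 and 295.7 in wild type, 525.8 and 515.9 in untreated TRAMP, 208.2, 345.9 and 329.2 with cromolyn and 290.9 with KitW-sh, so untreated TRAMP was the brightest group, as for Nkg7. Cd8a, its partner chain, was not above background on the same arrays. Leaving out either untreated TRAMP array or either wild-type array ended the Cd8b1 call (adjusted p = 0.0609 to 0.163).

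With KitW-sh, Thy1 was the 1 of 13 that fell (-1.90 ± 0.49, limma adjusted p = 0.0357, and 0.144 and 0.0983 without untreated TRAMP replicates 1 and 2). In untreated TRAMP against wild type, limma called 0 of 13, and 1 had an unadjusted p under 0.05. Cd3d, the third CD3 chain of the cluster, had intensities of 177.2 and 332.6 in wild type, 245.1 and 293.6 in untreated TRAMP, 180.5, 198.3 and 216.1 with cromolyn and 199.4 with KitW-sh. It was above background on 3 of 8 arrays, all from 30-week mice. Cd247, the zeta chain, had another pattern, with 199.5 and 226.2 in wild type, 214.8 and 232.3 in untreated TRAMP, 226, 235.6 and 222.2 with cromolyn and 200.5 with KitW-sh. It was above background on all 3 cromolyn arrays and on replicate 2 of the other replicated groups.

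Among 20 genes of T cell state and lineage, 18 had a probe and 13 were tested, and Eomes, Ctla4, Pdcd1, Ccr7 and Cxcr6 were not above background on any array. With cromolyn against untreated TRAMP 3 of 13 fell and 0 rose (median -0.33), beside 18% of all features called lower. Gata3, a factor of T helper cells that is also a gene of luminal epithelium, fell by 4.28 ± 1.02 (limma adjusted p = 0.0175). Its intensity was 10549.5 to 13058 on the 30-week arrays. On the 24-week arrays it was 3237.8 on cromolyn replicate 1, 356.5 and 381.6 on replicates 2 and 3, and 336.5 with KitW-sh. The epithelial genes given above were also low on the 24-week arrays. Their mean log2 level was 6.85, 7.2 and 8.32 on cromolyn replicates 1 to 3 and 8.64 with KitW-sh. The part of epithelium in Gata3 was not tested. On the background-corrected scale the activation gene Cd69 was at least 1.58-fold lower (limma adjusted p = 0.0185) and the chemokine receptor gene Cxcr3 at least 1.26-fold lower (limma, 0.0189), both not above background on any cromolyn array. Cxcr3 was above background on the untreated TRAMP arrays only (249.2 and 250.4), so it was tested only because of the group in which it was high. Without untreated TRAMP replicate 1 or 2 the calls of Gata3, Cd69 and Cxcr3 were lost (adjusted p = 0.0844 to 0.117), that of Gata3 also without cromolyn replicate 3 (0.0509).

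With KitW-sh against untreated TRAMP 1 of these 13 genes rose and 1 fell, beside 11.4% and 11.2% of all features. Bcl11b, a T cell factor that neurons also express, rose by 2.81 ± 0.77 (limma adjusted p = 0.0434), and Gata3 fell by 5.61 ± 1.37 (adjusted p = 0.0298). Bcl11b was above background on 1 of the 2 untreated arrays. It lost its call without any filter on dim probes (limma adjusted p = 0.0541), with a term for the replicate number (0.122) or without cromolyn replicate 3 (0.0666). The Bcl11b call was also lost without untreated TRAMP replicate 1 or 2 (log2 differences 2.84 and 2.77). The Gata3 call was lost without either wild-type array or either untreated TRAMP array. In untreated TRAMP against wild type limma called 0 of 13, and 1 had an unadjusted p under 0.05.

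Of 25 other genes of NK cells and cytotoxic effectors, 21 had a probe and 13 were tested. The NK receptor genes Klrb1c, Klrk1 and Ncr1 and the granzyme genes Gzmk, Gzmc, Gzme, Gzmf and Gzmg were not above background on any array. The granzyme gene Gzmd was above it on 3 arrays, wild-type replicates 1 and 2 (221.3 and 256.1) and untreated TRAMP replicate 2 (220.3), and lay at 202.1 to 215.1 on the others. With cromolyn against untreated TRAMP 6 of 13 fell and 0 rose (median -0.81, or -0.84 with genes at their bound), beside 18% of all features called lower. Ccl5, a chemokine gene of activated T and NK cells, had intensities of 517.8 and 733 in wild type, 1358.5 and 1782.5 in untreated TRAMP, 305.4, 517.3 and 515.9 with cromolyn and 1024.5 with KitW-sh. Ccl5 fell by 2.10 ± 0.36 with cromolyn (limma adjusted p = 0.00509), a call kept in 18 of 18 alternative fits.

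Ctsw fell by 1.5 ± 0.27 with cromolyn (limma adjusted p = 0.0057, and 0.0553 without untreated TRAMP replicate 2). Ctsc, the protease that activates granzymes and is found in many cells, fell by 1.80 ± 0.34 (limma adjusted p = 0.00715, and 0.065 without untreated TRAMP replicate 1). Xcl1, a chemokine gene of T and NK cells, had a log2 difference of -0.86 ± 0.22 (limma adjusted p = 0.0229). Xcl1 was above background on 1 array, untreated TRAMP replicate 2 (259.8), through which alone it was tested and entered the 6 that fell. Untreated TRAMP replicate 1 (203) was not above background, so no fold is given. The Xcl1 call was lost without cromolyn replicate 1 (adjusted p = 0.0555) or replicate 3 (0.0511). With KitW-sh against untreated TRAMP limma called 0 of 13, with 3 at an unadjusted p under 0.05. In untreated TRAMP against wild type it called 0 of 13, with 4 at an unadjusted p under 0.05, all 4 higher. The share of all features at an unadjusted p under 0.05 is not given, here or for the other lists. By limma p, Nkg7 ranked 1836 of 13072 features in untreated TRAMP against wild type (unadjusted p = 0.0194). It ranked 2875 with KitW-sh against untreated TRAMP (0.0102).

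Cytokines, receptors and signalling genes of the common gamma chain, the partner of Il2rb, were a list of 11 genes. The signalling genes Stat5a, Jak1 and Jak3 were among those tested. Of these 8 had a probe and 6 were tested, of which 2 fell and 0 rose in each set of 24-week tumours against untreated TRAMP. Over all features, 18% were called lower with cromolyn and 11.2% with KitW-sh. Il15, the interleukin that sustains NK and memory T cells, had intensities of 5041.2 and 2436.9 in wild type, 3037 and 2990.6 in untreated TRAMP, 245.9, 485.5 and 277.6 with cromolyn and 345 with KitW-sh. The 30-week and 24-week arrays did not overlap. Il15 fell by 3.68 ± 0.47 with cromolyn (limma adjusted p = 0.00146), and with KitW-sh it fell by 3.51 ± 0.63 (limma adjusted p = 0.0107). In untreated TRAMP against wild type limma called 0 of 6 genes of this list, with 1 at an unadjusted p under 0.05.

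Il15ra, the chain that presents interleukin 15, had intensities of 437.8 and 495.8 in wild type, 340.7 and 340.6 in untreated TRAMP, 194 to 196.5 with cromolyn and 207.5 with KitW-sh, and was not above background on the 24-week arrays. In mean deposited intensity it was 1.74-fold lower with cromolyn (limma adjusted p = 0.00126) and 1.64-fold lower with KitW-sh (limma, 0.0126), and on the background-corrected scale at least 1.97-fold lower with either. The cromolyn calls of both genes were kept in 18 of 18 alternative fits. The KitW-sh calls were lost without untreated TRAMP replicate 1 or 2 (adjusted p = 0.0526 and 0.0515 for Il15, and 0.0774 and 0.0736 for Il15ra).

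**Figure D3:**
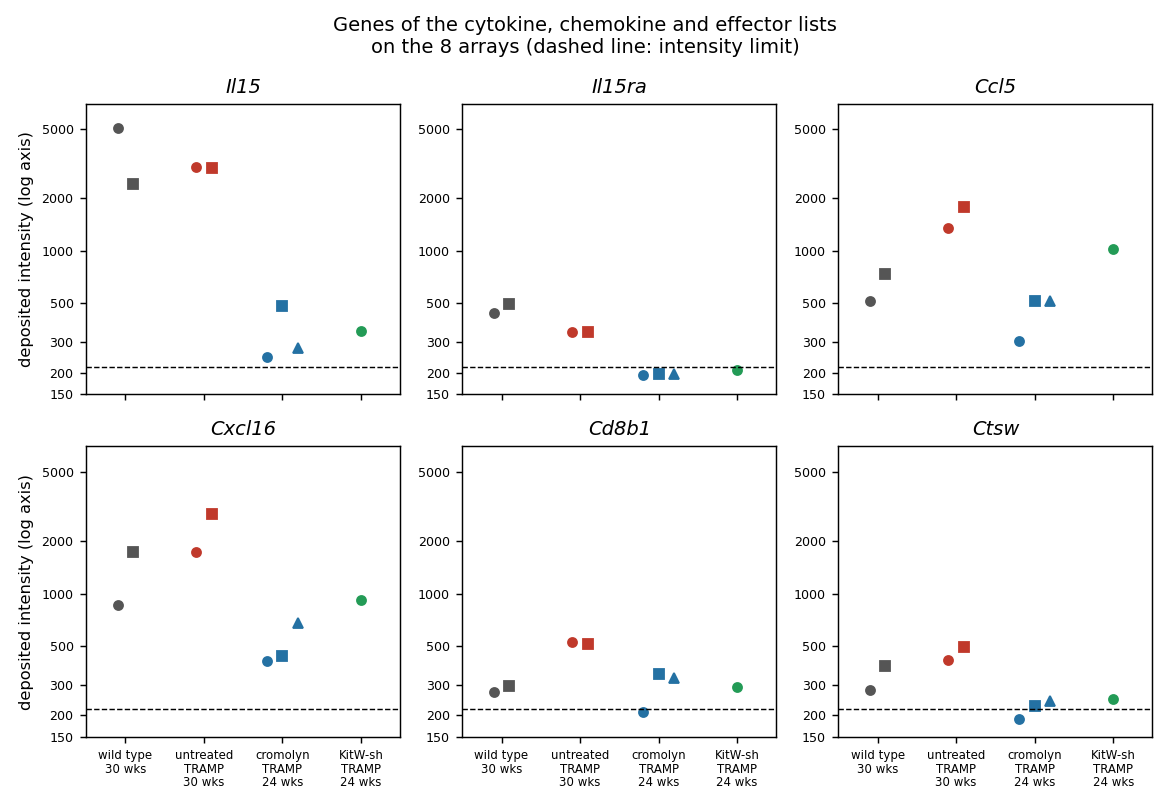
Deposited intensity (log axis) of 6 genes of the cytokine, chemokine and effector lists on the 8 arrays, by group. Circles, squares and triangles are replicates 1, 2 and 3, and the dashed line is the intensity limit of 216.34. Il15 lies at 2436.9 or more on the 30-week arrays and at 485.5 or less on the 24-week arrays, and Cd8b1, Ctsw, Ccl5 and Cxcl16 have higher means in untreated TRAMP than in any other group.

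Of 10 genes of chemokines and adhesion that draw T cells, 9 were tested. With cromolyn against untreated TRAMP 4 of 9 fell and 0 rose (median -1.44, or -1.56 with genes at their bound), beside 18% of all features called lower. Cxcl10, a ligand of Cxcr3, fell by 1.44 ± 0.24 (limma adjusted p = 0.00443). Cxcl16, the ligand of Cxcr6, fell by 2.39 ± 0.43 (limma adjusted p = 0.00611, and 0.0544 without untreated TRAMP replicate 2). Ccl21a, which guides T cells into lymphoid tissue, fell by 3.6 ± 0.81 (limma adjusted p = 0.0141, and 0.0713 and 0.087 without untreated TRAMP replicates 1 and 2). Icam1, the ligand of leukocyte integrins, fell by 1.67 ± 0.46 (limma adjusted p = 0.0297), a call lost without untreated TRAMP replicate 1 (0.119) or 2 (0.145) or cromolyn replicate 1 (0.072) or 3 (0.0812).

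With KitW-sh against untreated TRAMP limma called 0 of 9, with 1 at an unadjusted p under 0.05. In untreated TRAMP against wild type 1 of 9 rose, Cxcl10 (1.68 ± 0.26, limma adjusted p = 0.0151), which had intensities of 242.2 and 281.7 in wild type and 599.4 and 687.3 in untreated TRAMP. This call was lost without wild-type replicate 1 (adjusted p = 0.0712), wild-type replicate 2 (0.0537), untreated TRAMP replicate 1 (0.0865) or untreated TRAMP replicate 2 (0.132).

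Genes of leukocytes in general were set beside the T and NK markers. Of 11 pan leukocyte genes 3 fell with cromolyn against untreated TRAMP (median -0.79) and 2 with KitW-sh (median 0.04), and 0 rose. In untreated TRAMP against wild type limma called 0 of 11, with 0 at an unadjusted p under 0.05. Lcp1, an actin-bundling gene of leukocytes, fell by 2.36 ± 0.19 with cromolyn (limma adjusted p = 0.000275) and with KitW-sh it fell by 1.62 ± 0.26 (limma adjusted p = 0.00738), both kept in every alternative fit. Cytip fell by 2.89 ± 0.37 with cromolyn (limma adjusted p = 0.00144), and with KitW-sh it fell by 1.96 ± 0.49 (limma adjusted p = 0.032, and 0.133 and 0.0926 without untreated TRAMP replicates 1 and 2). Cd52, a small surface protein gene of leukocytes, had intensities of 4108.6 and 49151.4 on the untreated TRAMP arrays and 502.7, 1111.8 and 1435.5 with cromolyn. The log2 difference was -4.08 ± 1.02 (limma adjusted p = 0.021), and it was -2.28 without untreated TRAMP replicate 2 (0.067) and -5.88 without replicate 1. The Cd52 call was also lost without cromolyn replicate 1 (0.0539). Ptprc, the common leukocyte antigen gene, had intensities of only 186.8 to 226.6. Of 13 macrophage and myeloid genes 1 fell with cromolyn (median -0.85), Cd14, the endotoxin coreceptor (-2.97 ± 0.56, limma adjusted p = 0.00744, and 0.0539 without untreated TRAMP replicate 2). With KitW-sh limma called 0 of 13 (median 0.13), with 1 at an unadjusted p under 0.05. Of 6 B and plasma cell genes limma called 0 in both, with 0 at an unadjusted p under 0.05. Of 7 mast cell genes 3 fell with cromolyn and 1 with KitW-sh. In mean deposited intensity the carboxypeptidase gene Cpa3 was 2.07-fold lower with cromolyn (limma adjusted p = 0.008) and 2.20-fold lower with KitW-sh (limma, 0.0269), and on the background-corrected scale at least 2.27-fold lower with either. Both Cpa3 calls were lost without untreated TRAMP replicate 1 (log2 differences -1.19 and -1.35). The KitW-sh call was also lost with no background correction (limma adjusted p = 0.0523).

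MHC class I molecules show peptides to CD8 T cells and restrain NK cells. All 9 genes of this presentation list were above background on all 8 arrays, unlike the T and NK markers. In untreated TRAMP against wild type 3 of 9 rose and 0 fell (median 1.49), with H2-K1, a heavy chain gene, at 1.83 ± 0.25 (limma adjusted p = 0.00915, and 0.0559 and 0.092 without untreated TRAMP replicates 1 and 2). Against untreated TRAMP 8 of 9 fell with cromolyn (median -2.30) and 7 of 9 with KitW-sh (median -2.33). Tapbp, whose product helps to load peptide, fell by 3.06 ± 0.22 with cromolyn (limma adjusted p = 0.000169), and with KitW-sh it fell by 2.77 ± 0.29 (limma adjusted p = 0.00173). B2m, the light chain gene, was also called lower in both, but its intensities of 63820.2 and 64622.1 in untreated TRAMP lay near the highest of the table (68806.3), so no fold is given. Heavy chain genes are close in sequence, so their probes may share signal.

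**Figure D4:**
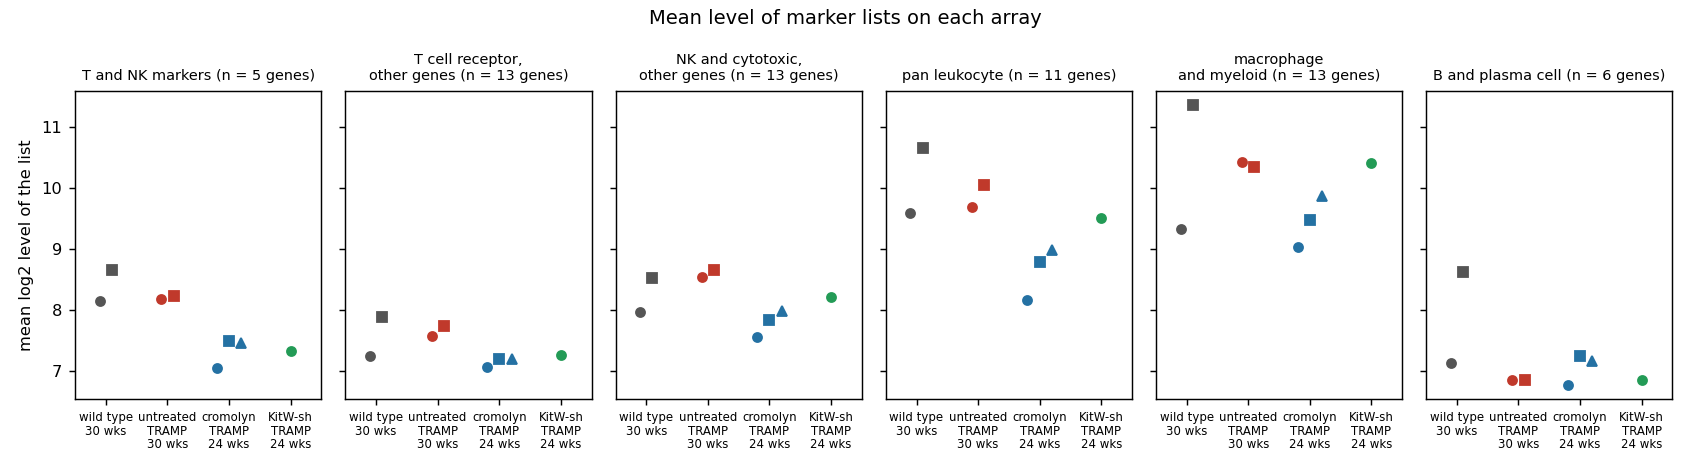
Mean log2 level of 6 marker lists on each of the 8 arrays, by group, over the tested genes of each list. Circles, squares and triangles are replicates 1, 2 and 3. Wild-type replicate 2 lies above replicate 1 in all 6 lists, by 11.36 to 9.32 for macrophage and myeloid genes, and the KitW-sh array lies at 10.41 there and at 7.33 for the T and NK markers.

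The KitW-sh tumour and the cromolyn tumours, both of 24 weeks, were compared last. Of the 5 tested markers limma called 0, with 0 at an unadjusted p under 0.05, where 0.0229% of all features were called, all of them higher with KitW-sh (0.0229% higher and 0% lower). The 95% interval of the log2 difference, KitW-sh minus cromolyn, was -0.98 to 0.47 for Prf1, -1.08 to 1.29 for Cd3e, -0.99 to 1.64 for Cd3g, -0.74 to 0.83 for Nkg7 and -0.71 to 0.21 for Il2rb. For Prf1, Cd3e, Cd3g and Il2rb these intervals hold changes of about the size seen against untreated TRAMP. The groups are therefore not shown to be alike. The KitW-sh values rest on 1 array, whose spread was assumed to be that of the other groups.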

How the data were processed

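Each of 25697 probes had a deposited intensity on each of 8 arrays, on a linear scale. The authors used BeadStudio per the submitters' processing notes, with no version given. Ranked intensities agreed between arrays to within 0.0489 (log2), which shows that arrays had been brought to 1 distribution before deposit. The lowest was 123.832, and background still stood in them. A further table holds 8 columns of signals named by slide position. They could not be matched to samples and were not used here.

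The deposited intensities were corrected with limma's normexp (offset 50), quantile normalized and put on the log2 scale. The intensity limit came from the mode (181.009) and SD (15.1873) of the dim side of the distribution, at a tail of 0.01, and 14535 to 14556 probes per array passed it. Of the probes 23978 had 1 gene symbol, 0 had several and 1719 had none here. Symbols were updated through a gene table of GRCm38.p6, where 23962 matched. The probe with the highest mean was kept for each gene, which left 13072 features (11987 named genes) from 18063 probes above the limit on at least 1 array.

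A model with a mean for each group was fitted over all 8 arrays with limma 3.58.1 (R 4.3.3), which gave 4 residual and 2.62 prior degrees of freedom. P-values are two-sided, with Benjamini-Hochberg adjustment in each comparison separately (6 in all) and calls at 0.05. The fitting step alone was tried on simulated log2 values, with changes set in untreated TRAMP. It was scored for untreated TRAMP against wild type only, so the other comparisons, those with KitW-sh among them, were not assessed. The number of arrays limits the precision. A fold written as "at least" sets the bright group's mean against the lowest level above background on the dim arrays, about 7.01 on the log2 scale. It holds on the background-corrected scale only, since deposited intensities still contain background. The rule for names took all markers, the genes nearest to them, and of each other list up to 4 called genes with the smallest p per comparison. Names are given here for immune lists in the 3 comparisons that involve untreated TRAMP, and other lists by level. Values of Cd3d, Cd247, Gzmd and Ptprc were added after they were seen. The markers and lists were chosen with earlier results of these data known. Promoter sequences are from RefSeq (GRCm38.p6), where all 4 genes shown were found. Alternatives were other background corrections, normalizations, filters, probe rules, fits and samples left out.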

Additional observations from a re-analysis of the deposited data

How the results depend on the processing

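The number of markers called changed with the processing in most comparisons. For untreated TRAMP against wild type it was 1, and 2 when only the groups compared were fitted (Nkg7 added), with 0 to 1 when an array was left out. For cromolyn against untreated TRAMP it was 1, and 2 with cyclic loess, with the limit passed on at least 2 arrays, with every probe tested, with the replicate block and with eBayes with trend, 3 with only the groups compared, and 0 to 3 when an array was left out. For KitW-sh against untreated TRAMP it was 1, and 0 with normexp offset 16, with cyclic loess, with no filter on dim probes and with the replicate block, 4 with only the groups compared, and 0 to 1 when an array was left out. For cromolyn against wild type it was 1, and 2 with the replicate block, and 1 to 3 when an array was left out. For KitW-sh against wild type it was 1, and 1 to 2 when an array was left out. For KitW-sh against cromolyn it was 0 in all 17 alternatives. The cause was not tested, except that fits of only the groups compared hold fewer samples. The differences of Prf1 from wild type kept their direction in all alternatives.

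With an array left out, uncalled differences changed sign as follows. Against wild type, untreated TRAMP gave -0.73 to 0.63 for Cd3e (0.63 without wild-type replicate 2), -0.25 to 1.07 for Cd3g (-0.25 without wild-type replicate 1) and -0.19 to 0.03 for Il2rb (0.03 without untreated TRAMP replicate 2), and KitW-sh gave -1.26 to 0.06 for Cd3g (0.06 without wild-type replicate 2). Cromolyn against untreated TRAMP gave -0.21 to 0.01 for Il2rb (0.01 without untreated TRAMP replicate 1). KitW-sh against cromolyn gave -0.04 to 0.21 for Cd3e and -0.17 to 0.22 for Nkg7, both lowest without cromolyn replicate 1. Markers above background numbered 5 at a tail of 0.05 and 4 at 0.001, where Il2rb was lost, both chosen after seeing the data. Over all features, calls numbered 864 and ran from 418 to 1468 over the other settings and 202 to 1308 with an array left out for untreated TRAMP against wild type. They numbered 4822 (3580 to 6602, and 2427 to 5357) for cromolyn and 2949 (1867 to 6204, and 1200 to 3849) for KitW-sh against untreated TRAMP, and 3 (0 to 7, and 0 to 31) for KitW-sh against cromolyn. Of 43 calls among list genes (up to 4 per immune list in 3 comparisons), 16 were kept in every alternative.

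Replicate numbers are shared between groups, but nothing in the labels says that they pair samples. Deviations of same-numbered arrays correlated at 0.002 to 0.074, so the block is given only as an alternative. With the replicate block Cd3g passed for cromolyn against untreated TRAMP (-1.45) and against wild type (-1.04). The Nkg7 call for KitW-sh was lost (limma adjusted p = 0.0984). The block also ended calls of list genes named above. These were Cxcl10 in untreated TRAMP against wild type (limma adjusted p = 0.0604), and Cd69 (0.0634) and Xcl1 (0.0713) with cromolyn against untreated TRAMP. With KitW-sh against untreated TRAMP they were Thy1 (0.0502), Bcl11b (0.122), Il15ra (0.0611), Cytip (0.0772) and Cpa3 (0.0887).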
